A study of Homo sapiens with 9 samples.

Results

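Genes of the cadherin superfamily were followed in MDA-MB-231, a cell line of human triple-negative breast cancer with mesenchymal features, at 3 levels of the orphan nuclear receptor TLX (gene NR2E1). Members were taken by symbol alone, as the CDH, PCDH, FAT, DSG, DSC, DCHS and CELSR genes whose symbol is that prefix followed by a number. The rule matched 51 of the 27548 rows of the expression table, and 1 row per symbol, the one with the highest mean, left 49 genes. CDH4 and DCHS2 had a second row each. Clustered protocadherins (PCDHA, PCDHB and PCDHG) fall outside the rule and are given separately.

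RNA was sequenced from 9 libraries, 3 in each of 3 groups. The control libraries S1 to S3 were made from control cells that had received a control siRNA (CTL+siCTL). The TLX libraries S4 to S6 came from cells overexpressing TLX, also with the control siRNA (TLX+siCTL). In S7 to S9 the overexpressing cells had received siTLX, the siRNA to TLX (TLX+siTLX). All cells were transfected for 48 h, so every group, controls included, carried an siRNA and the transfection reagent. The sources used here do not give the means of overexpression, nor whether those cells are a clone or a pool. PC3, the name of a prostate line, stands unexplained in the titles of the controls. Differences between the control and the overexpressing cells other than TLX cannot be told apart from TLX. No control cells received siTLX, so its effects other than on TLX cannot be told apart from the lowering of TLX.

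Cadherins are calcium-dependent adhesion proteins that share repeated extracellular domains. Classical cadherins bind the same cadherin on the neighbouring cell and hold the actin cytoskeleton through catenins at adherens junctions, and the desmosomal cadherins (desmocollins and desmogleins) hold keratin filaments through plakoglobin, plakophilins and desmoplakin. The giant FAT and Dachsous cadherins and the CELSR receptors act in planar cell polarity and growth control, and the non-clustered protocadherins are best known from the nervous system. In breast epithelium E-cadherin (CDH1) and P-cadherin (CDH3) are the main classical members, and a shift from CDH1 to N-cadherin (CDH2) is a familiar mark of mesenchymal change. TLX is known mainly as a transcriptional repressor in neural stem cells.

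Values are the authors' log2 CPM (counts scaled to library size, with a small prior count, on a log2 scale), and differences are log2 fold changes with the moderated standard error (SE) of limma. A gene was called where limma's adjusted p, over all 27548 rows, was under 0.05. Effective library sizes, recovered from the lowest values, were 73900000 to 91800000 reads. The libraries of a group differed by more than counting noise in every pair, with a chi-square per gene of 9.62 to 59.8 where about 1 would be noise. The highest value was for S7 with S9. Whether replicates were separate cultures is not stated, and p-values therefore rest on a spread that may be technical. NR2E1 itself had log2 CPM of -4.59, -4.28 and -4.50 in the control libraries, 0.28, -0.84 and 0.23 in the TLX libraries and -2.61, -3.40 and -1.77 after siTLX. It rose by 4.35 ± 0.47 with overexpression (limma adjusted p = 0.000133) and fell by 2.48 ± 0.47 after the siRNA (adjusted p = 0.00494). The siRNA thus left NR2E1 above the control cells in all 3 libraries. Markers of mesenchymal-type breast lines (VIM, EGFR, CD44, MSN, AXL) had group means of 8.98 to 10.69, the estrogen receptor gene ESR1 had -2.58 to -2.31, and the prostate markers KLK3, KLK2 and FOLH1 had group means of -5.33 to -3.72. Whether these markers can tell PC3 cells from MDA-MB-231 was not tested, so they do not settle the titles of the controls.

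Of the 49 genes, 18 reached a mean log2 CPM of 0 or more over the 9 libraries, 14 of them 1 or more. A further 14 lay between -3 and 0, and 17 lay below -3, where no library held more than 60.0 estimated reads. CDH5, the endothelial VE-cadherin, was in the lowest class, with at most 3.05 estimated reads in a library. Calls were concentrated in the genes with more reads. Between TLX+siCTL and CTL+siCTL 11 of the 14 genes at 1 or more were called, all 4 between 0 and 1, 2 of the 14 between -3 and 0, and 1 of the 17 below -3.

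Promoter sequence was available in RefSeq (GRCh38.p14) for 31 of the 49 genes. Those of DSC2, DSG2, FAT1 and PCDH7 are shown because these 4 genes were lower in TLX+siCTL and higher again after the siRNA, and each had an entry. Each run is written 5′ to 3′ on the gene's strand and holds the bases of the 250 before the RefSeq start site that lie before the gene's first annotated exon in GENCODE 29. Capitals mark CACCTG, an E-box bound by repressors of the SNAI and ZEB families, or its reverse complement CAGGTG. None of these windows holds AAGTCA, the half-site that TLX is known to bind, on either strand.
DSC2, chr18:31102523-31102671, minus strand: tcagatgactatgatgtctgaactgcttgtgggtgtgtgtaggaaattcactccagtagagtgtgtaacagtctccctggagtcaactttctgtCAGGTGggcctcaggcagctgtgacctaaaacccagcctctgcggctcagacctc
DSG2, chr18:31497927-31498042, plus strand: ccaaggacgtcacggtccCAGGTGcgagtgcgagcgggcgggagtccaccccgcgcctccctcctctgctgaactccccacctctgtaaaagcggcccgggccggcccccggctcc
FAT1, chr4:186726723-186726946, minus strand: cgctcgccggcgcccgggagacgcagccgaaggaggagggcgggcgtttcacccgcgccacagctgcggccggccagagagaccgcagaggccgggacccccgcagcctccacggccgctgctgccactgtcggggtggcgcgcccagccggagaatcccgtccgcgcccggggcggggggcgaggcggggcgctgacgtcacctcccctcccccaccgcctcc
PCDH7, chr4:30720119-30720368, plus strand: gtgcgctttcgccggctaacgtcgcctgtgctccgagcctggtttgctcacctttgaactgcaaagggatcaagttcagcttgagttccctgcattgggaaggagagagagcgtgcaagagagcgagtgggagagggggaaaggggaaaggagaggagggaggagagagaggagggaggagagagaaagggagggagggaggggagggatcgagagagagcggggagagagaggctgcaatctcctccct

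Over the full 250 bases CACCTG or its complement stood once in DSC2, at position -156, and in DSG2 at positions -116 and -232, where -1 is the base before the start site, and FAT1 and PCDH7 held none. On both strands CACCTG was found in 6 of the 31 members' windows (19.4%) and in 17.5% of 27305 RefSeq promoters of the same length, and AAGTCA in 1 of 31 (3.2%), that of FAT2, and in 10.9% of all. No member's window holds both motifs. These are matches of letters, not sites, and the promoters of DSC2 and DSG2, which moved in the same directions, share the E-box letters while those of FAT1 and PCDH7, which also did, do not.

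The first comparison sets the TLX-overexpressing cells against the control cells, both with the control siRNA. Of the 49 genes 12 were lower and 6 higher by limma, 24.5% and 12.2%, where 15.1% of all rows were lower and 15.0% higher. Among the 12564 rows whose mean log2 CPM was 1 or more, 27.4% were lower and 29.3% higher, 56.6% in all. Of the 14 members at that level 7 were lower and 4 higher. In either direction 36.7% of the members were called against 30.1% of all rows. The authors' deposited table, at the same threshold on its own adjusted p, gives 6 higher and 12 lower as well, of which 17 are shared, with FAT2 called in place of CDH2. The median log2 fold change of the members was -0.19, and that of all rows 0.00. Of the 12 lower genes 11 were at least 2-fold lower, and FAT3 alone of the 6 higher genes was at least 2-fold higher. Of the non-clustered protocadherins 5 of 10 fell and 0 rose, of the desmosomal cadherins 2 of 7 fell and 0 rose, and of the FAT and Dachsous genes 3 of 6 rose and 1 fell.

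The second comparison, TLX+siTLX against TLX+siCTL, is that of siTLX with the control siRNA in overexpressing cells. Here 13 members were higher and 1 lower, 26.5% and 2.04%, where 12.7% of all rows were higher and 10.9% lower. Together these make 28.6% of the members and 23.7% of all rows. Of rows with a mean of 1 or more, 23.8% were higher and 22.0% lower, 45.8% in all. The members' median log2 fold change was 0.28 against 0.00 for all rows. Of the 5 classical type I cadherins 4 rose. In the remaining comparison, TLX+siTLX with CTL+siCTL, 8 members were higher and 6 lower (16.3% and 12.2%), where 17.7% and 17.0% of all rows were, shares near those of the table, and together 28.6% against 34.6%. Of rows with a mean of 1 or more, 32.4% were higher and 31.2% lower, 63.6% in all. With library medians over all rows centred, the first comparison had 8 members higher and 12 lower and the second 13 higher and 4 lower (FAT2, FAT4, CELSR2 and CELSR3). The 3 comparisons share their groups in pairs, so a gene low in TLX+siCTL is drawn towards a fall in the one and a rise in the other, and the values of each group are given below side by side.

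**Figure D1:**
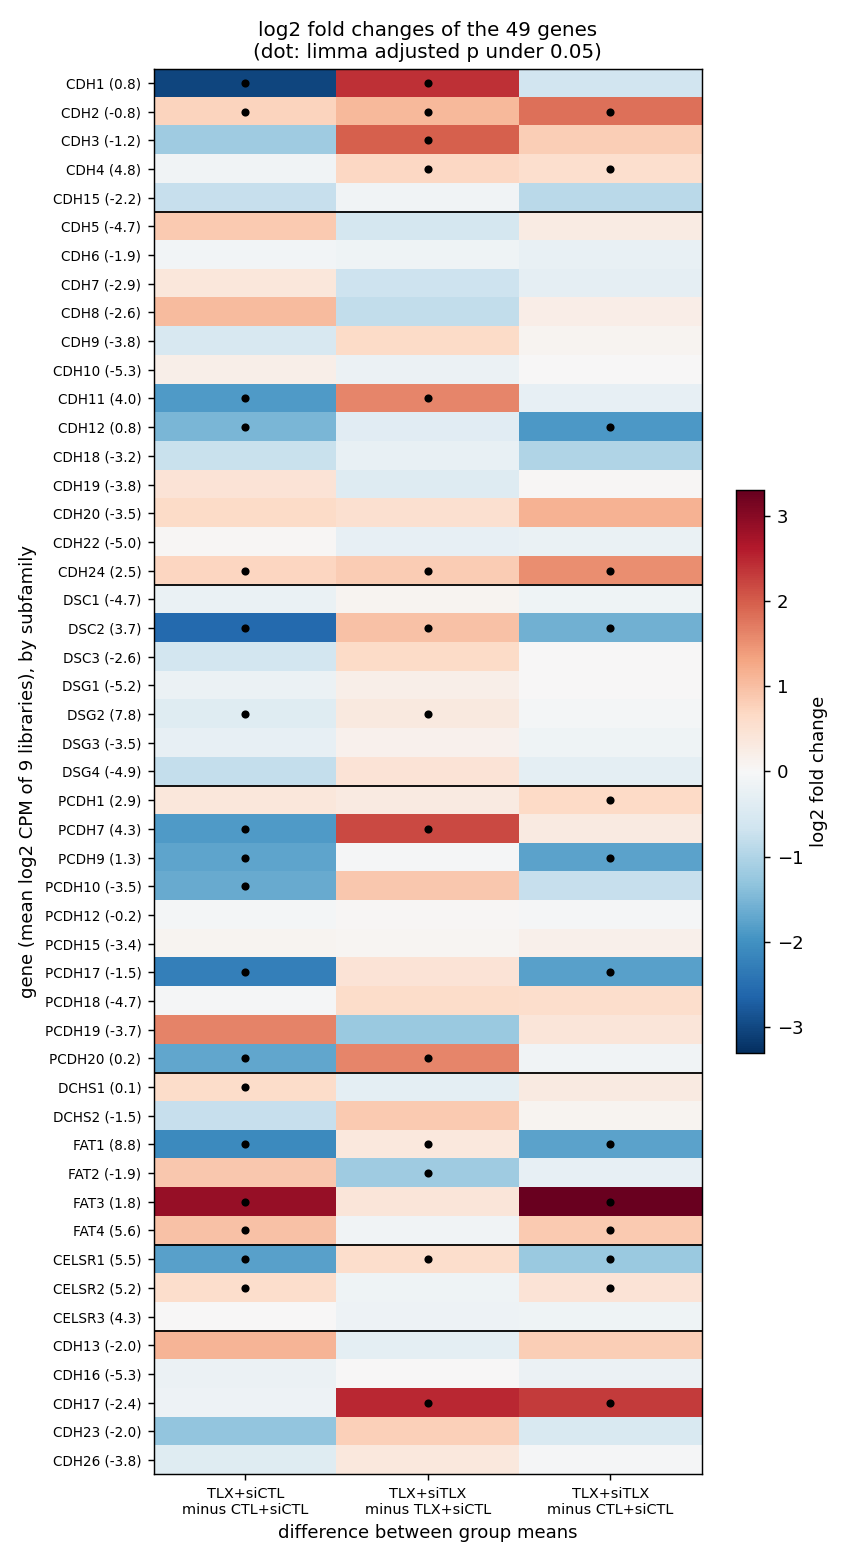
Log2 fold changes of the 49 genes (rows, by subfamily, with the mean log2 CPM of the 9 libraries in brackets) in the 3 comparisons (columns); colour gives the difference of group means on the log2 scale and a dot marks a limma adjusted p under 0.05. The first column holds 12 lower and 6 higher calls, the second 13 higher and 1 lower, the third 8 higher and 6 lower.

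Among the classical type I cadherins, CDH1 showed the widest swing. E-cadherin (CDH1, ENSG00000039068, GRCh38 chromosome 16, 68737225 to 68835548, plus strand) had log2 CPM of 1.78, 1.65 and 2.65 in the control libraries, -1.22, -0.94 and -0.84 in the TLX libraries and 1.68, 1.14 and 1.40 after siTLX. The TLX+siCTL libraries lay below all 6 others, and the CTL+siCTL and TLX+siTLX libraries overlapped. CDH1 was 8.16-fold lower in TLX+siCTL than in control cells (-3.03 ± 0.27, SE; limma adjusted p = 4.7e-05) and rose 5.31-fold after the siRNA (2.41 ± 0.27, adjusted p = 0.000321). Between TLX+siTLX and CTL+siCTL the difference was -0.62 (95% interval -1.24 to 0.01, adjusted p = 0.123), which missed the threshold. The highest control value was that of S3, and with each library left out in turn the fall ranged from -3.22 to -2.72. For the fall and the rise the authors' deposited table has signed fold changes of -8.44 and 5.53.

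Luminal and epithelial breast markers (ESR1, PGR, GATA3, KRT8, KRT18 and EPCAM) had a summed level of 696 to 723 CPM in CTL+siCTL, 527 to 546 in TLX+siCTL and 713 to 801 in TLX+siTLX, most of it from the keratins KRT8 and KRT18. The 6 genes did not move as 1 group. In TLX+siCTL 3 fell (PGR by -2.22 ± 0.59, KRT8 by -0.49 ± 0.04, KRT18 by -0.36 ± 0.07) and 2 rose (GATA3 by 0.93 ± 0.13, EPCAM by 0.21 ± 0.06). After the siRNA 3 rose and 0 fell, and GATA3, a luminal transcription factor, rose again by 0.93 ± 0.13, so that it went against CDH1 in the first step and with it in the second. Of rows at a mean of 1 or more, the level of 4 of these 6 genes, 56.6% and 45.8% were called in the 2 steps. The part of these 6 genes in the CDH1 result was not tested. In such bulk libraries fewer cells of a kind and less RNA per cell cannot be told apart.

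P-cadherin (CDH3, chromosome 16, 68636189 to 68722616), whose gene ends 14608 bases before that of CDH1, had few reads. Its log2 CPM was -0.62, -1.07 and -1.56 in the control libraries, -2.14, -1.75 and -2.85 in the TLX libraries and -0.20, 0.26 and -0.88 after siTLX. The rise after the siRNA was called (1.97 ± 0.42, adjusted p = 0.00854), while the difference in TLX+siCTL, -1.16 ± 0.42, missed the threshold (adjusted p = 0.0681) although the 2 groups did not overlap. An antisense gene covers 11.1% of the CDH3 exon bases and another 5.62% of those of CDH1, and since the counting is not stated to use strand, such reads cannot be told apart.

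N-cadherin (CDH2, chromosome 18, 27950966 to 28177446) stepped upwards through the groups in place of a fall. Its log2 CPM was -1.78, -1.68 and -1.56 in the control libraries, -0.76, -1.26 and -0.78 in the TLX libraries and -0.07, 0.08 and 0.43 after siTLX. No 2 groups overlapped. From CTL+siCTL to TLX+siTLX CDH2 was 3.53-fold higher (1.82 ± 0.24, adjusted p = 0.000321), and after the siRNA 2.11-fold higher (1.08 ± 0.24, adjusted p = 0.0107). The first step, 0.74 ± 0.24 (adjusted p = 0.0458), was the least firm: it missed the threshold without S1, S2, S3, S4, S6 or S8 (adjusted p = 0.0554 to 0.108) and with log2(CPM + 1) values (adjusted p = 0.0594), and the authors' deposited table does not call it. The summed level of the 5 mesenchymal markers was also lowest in CTL+siCTL, at 4110 to 4220 CPM, against 4550 to 4660 in TLX+siCTL and 5690 to 6000 in TLX+siTLX, and its part in the CDH2 result was not tested. Of these 5 genes 3 rose and 1 fell in TLX+siCTL, where 56.6% of rows at a mean of 1 or more were called. The rises were those of AXL (1.13 ± 0.04), CD44 (0.46 ± 0.05) and EGFR (0.34 ± 0.06). The one that fell was vimentin (VIM), a filament protein of mesenchymal cells (-0.64 ± 0.06, adjusted p = 8.02e-05), which differed by 0.04 ± 0.06 from control cells after siTLX. A lower CDH1 and a higher CDH2 thus stood together in TLX+siCTL, whereas in TLX+siTLX CDH1 and CDH2 were both higher than in TLX+siCTL.

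R-cadherin (CDH4), a cadherin of retina and brain, did not follow CDH1 in TLX+siCTL. Its log2 CPM was 4.68, 4.81 and 4.58 in the control libraries, 4.63, 4.48 and 4.58 in the TLX libraries and 5.29, 5.28 and 5.20 after siTLX. The first difference was -0.13 (95% interval -0.28 to 0.02, adjusted p = 0.199), and CDH4 rose 1.62-fold after the siRNA (0.70 ± 0.07, adjusted p = 0.00012). A second row with the symbol CDH4, outside the primary annotation, gave -0.13 ± 0.14 and 0.67 ± 0.14 for these, and reads may be divided between the 2 rows. M-cadherin (CDH15) was at a mean of -2.25 and was not called in any comparison.

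Type II cadherins lack the adhesion motif of type I and act in mesenchyme, bone and brain. Of the 13, 3 were called in at least 1 comparison. In the 3 comparisons 23.1%, 15.4% and 15.4% of them were called, where 30.1%, 23.7% and 34.6% of all rows were. OB-cadherin (CDH11, ENSG00000140937, chromosome 16, 64943753 to 65126112, minus strand), a cadherin of osteoblasts and mesenchymal cells, had log2 CPM of 4.70, 4.70 and 4.88 in the control libraries, 2.80, 2.76 and 3.08 in the TLX libraries and 4.40, 4.36 and 4.75 after siTLX. It fell 3.68-fold (-1.88 ± 0.12, adjusted p = 7.98e-06) and rose 3.08-fold after the siRNA (1.62 ± 0.12, adjusted p = 3.87e-05). What was left against control cells was -0.26 (95% interval -0.54 to 0.02, adjusted p = 0.153), and without S9 this was -0.38 and passed the threshold (adjusted p = 0.0349). The mesenchymal cadherin CDH11 and the epithelial cadherin CDH1 were therefore both low in the same 3 libraries.

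CDH12, a brain cadherin, fell and was not called in the siRNA step. Its log2 CPM was 2.07, 1.85 and 2.02 in the control libraries, 0.64, 0.78 and -0.02 in the TLX libraries and 0.27, 0.23 and -0.27 after siTLX. The fall was 2.86-fold (-1.52 ± 0.24, adjusted p = 0.00119), the siRNA step was -0.39 (95% interval -0.93 to 0.16, adjusted p = 0.325), and CDH12 remained 3.74-fold lower than in control cells (-1.90 ± 0.24, adjusted p = 0.000241). CDH24, a little-studied type II cadherin on chromosome 14 (23047062 to 23057538), went the other way. It had log2 CPM of 1.71, 1.78 and 1.72 in the control libraries, 2.50, 2.48 and 2.34 in the TLX libraries and 3.20, 3.19 and 3.44 after siTLX, and no 2 groups overlapped. Its rises were 0.70 ± 0.09 (adjusted p = 0.000358) and 0.84 ± 0.09 (adjusted p = 0.000239), in all 2.91-fold (1.54 ± 0.09). CDH24 and CDH2 were the members that rose in all 3 comparisons. The other 10 type II genes had means between -5.26 and -1.87 and none was called.

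**Figure D2:**
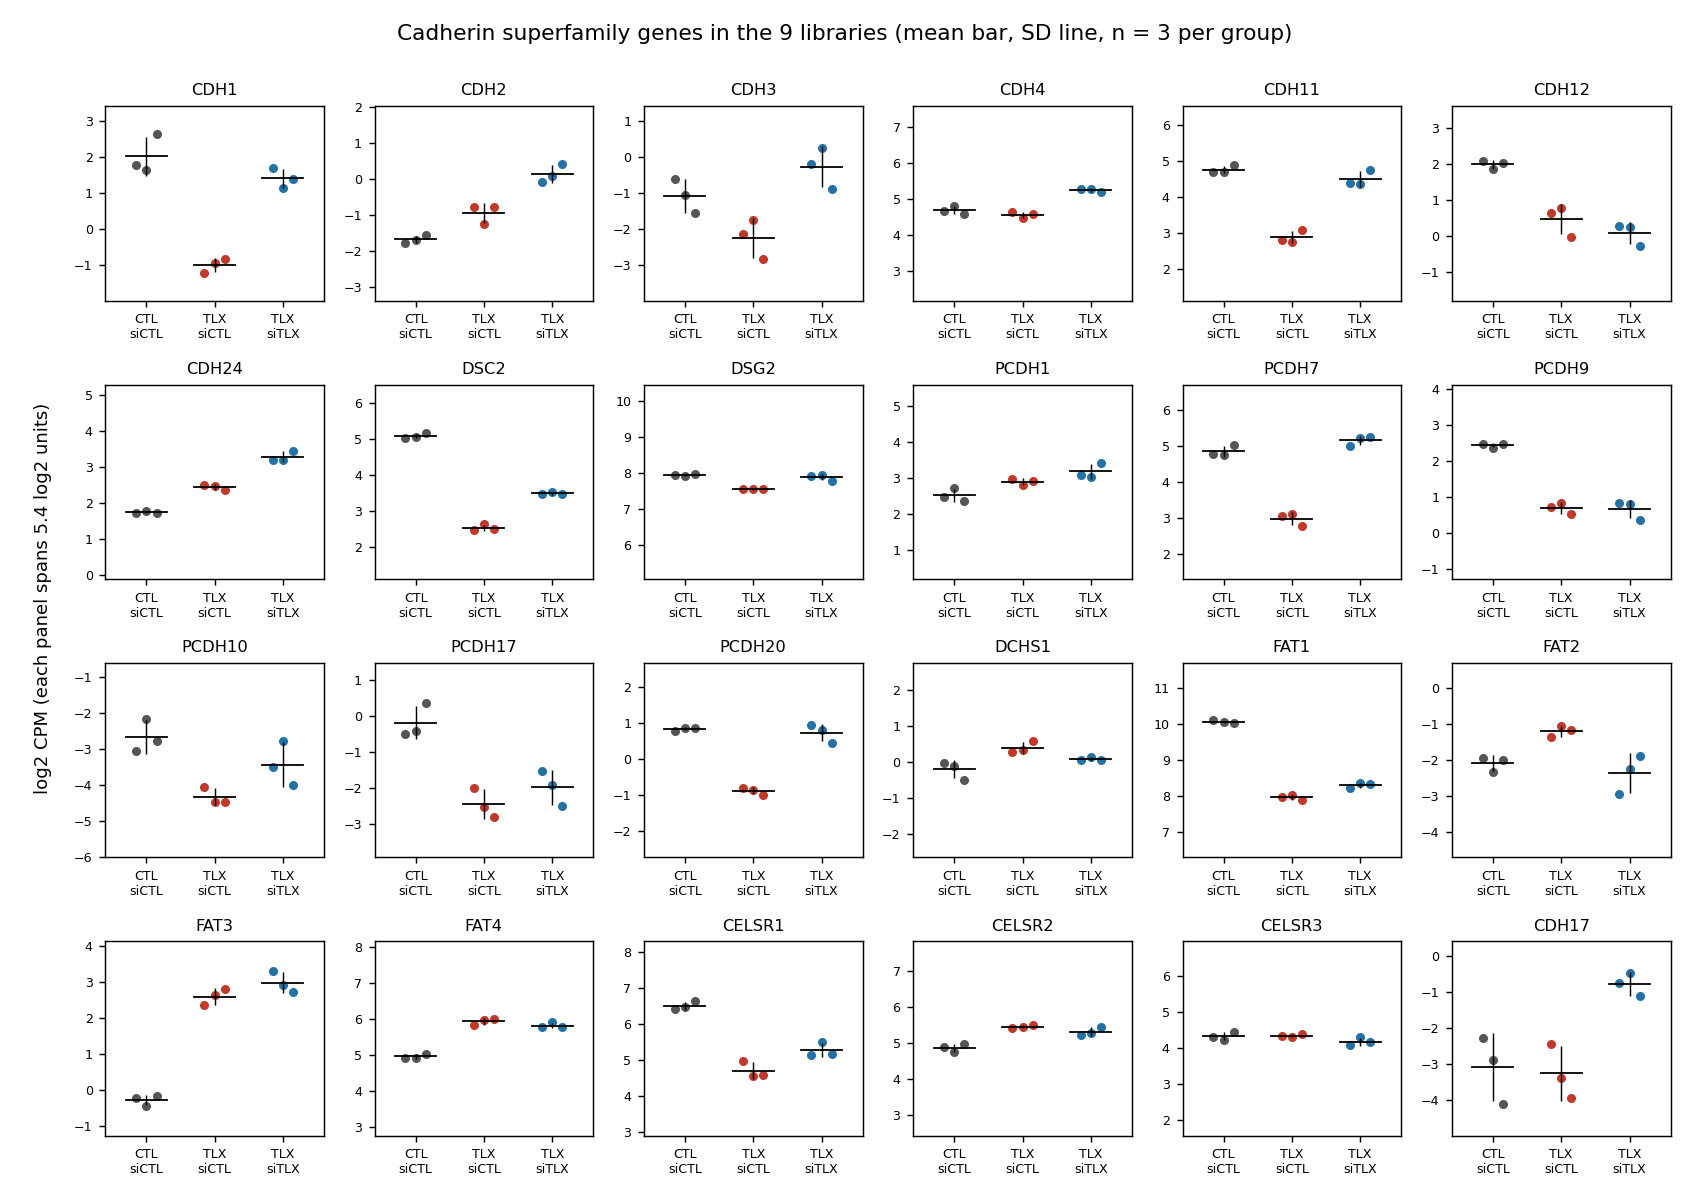
Log2 CPM of 24 genes in each library (points; grey CTL+siCTL, red TLX+siCTL, blue TLX+siTLX), with the group mean (bar) and SD (line, n = 3); every panel spans the same number of log2 units, so heights of steps can be compared between panels but levels cannot. CDH1, CDH11, PCDH7 and PCDH20 are low in TLX+siCTL and near the control level in TLX+siTLX, CDH12, PCDH9 and PCDH17 stay low, and FAT3 stays high.

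Of the 7 desmosomal cadherin genes, which lie together on chromosome 18 between 30990008 and 31549008, only DSC2 and DSG2 had a mean log2 CPM above 0. Desmocollin 2 (DSC2, ENSG00000134755, 31058840 to 31102522, minus strand) had log2 CPM of 5.03, 5.07 and 5.16 in the control libraries, 2.46, 2.63 and 2.49 in the TLX libraries and 3.46, 3.53 and 3.48 after siTLX. No 2 groups overlapped, and the spread within a group was at most 0.09 (SD). DSC2 fell 5.89-fold (-2.56 ± 0.06, adjusted p = 1.71e-07), rose 1.95-fold after the siRNA (0.96 ± 0.06, adjusted p = 1.53e-05) and was still 3.02-fold below control cells (-1.60 ± 0.06, adjusted p = 2.95e-07). Desmoglein 2 (DSG2, ENSG00000046604, 31498043 to 31549008), its partner in simple epithelia, moved in the same directions by smaller steps. DSG2 was at 7.96, 7.94 and 7.98 in the control libraries, 7.55, 7.56 and 7.55 in the TLX libraries and 7.93, 7.95 and 7.79 after siTLX, a fall of -0.40 ± 0.04 (adjusted p = 0.00014) and a rise of 0.33 ± 0.04 (adjusted p = 0.000715). Its difference between TLX+siTLX and control cells was -0.07 (95% interval -0.17 to 0.03). DSC1, DSC3, DSG1, DSG3 and DSG4, the desmosomal cadherins of stratified epithelia, had means of -5.20 to -2.61 and were not called.

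Genes of the desmosome plaque, the inner layer that the desmosomal cadherins bind, were called about as often as expressed rows in general in the first step. The list held 9 genes, 8 of them at a mean log2 CPM of 1 or more, and counts PERP, a membrane protein of desmosomes, with the plaque. Of the 9, 4 fell and 1 rose in TLX+siCTL, and 7 rose and 0 fell in TLX+siTLX against TLX+siCTL. In TLX+siTLX against CTL+siCTL 6 rose and 0 fell. PERP was among those called in the first 2 comparisons (-0.22 ± 0.05 and 0.28 ± 0.05). Over all rows at a mean of 1 or more the shares called were 56.6%, 45.8% and 63.6%. The list's median log2 fold changes were -0.20, 0.50 and 0.36, where those of all rows were 0.00. Centring library medians over all rows moves these by 0.12, -0.14 and -0.03. Plakoglobin (JUP), which binds both desmosomal and classical cadherins, changed by -0.20 ± 0.06 (adjusted p = 0.0387) and 0.95 ± 0.06 (adjusted p = 2.11e-05), and the plakophilin PKP3 by -0.59 ± 0.14 (adjusted p = 0.00951) and 0.78 ± 0.14 (adjusted p = 0.00332). Periplakin (PPL) rose most, from 2.82, 2.80 and 3.27 log2 CPM in TLX+siCTL to 4.68, 4.66 and 5.35 in TLX+siTLX (1.94 ± 0.19, adjusted p = 0.000161), while its first difference was -0.03 ± 0.19 (adjusted p = 0.967).

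Of 13 catenins and other adherens junction partners with a row, 10 of them at a mean log2 CPM of 1 or more, 4 rose and 3 fell in each of the 3 comparisons, with medians of -0.01, 0.02 and 0.14. Among all rows at that level 56.6%, 45.8% and 63.6% were called. The counts of the first and the last comparison are near those shares, and that of the siRNA step lies above its share. Beta-catenin (CTNNB1), which links cadherins to alpha-catenin, was not called in TLX+siCTL (-0.01 ± 0.05, adjusted p = 0.93) and fell by 0.39 ± 0.05 after the siRNA (adjusted p = 0.000504). The p120 catenin CTNND1, which keeps cadherins at the membrane, rose by 0.47 ± 0.08 in that step (adjusted p = 0.00234). Vinculin (VCL), which ties the junction to actin, rose in both steps and was 1.00 ± 0.06 above control cells in TLX+siTLX (adjusted p = 2.91e-06). The neural alpha-catenin CTNNA2 was near the floor and was called in TLX+siCTL (1.69 ± 0.49, adjusted p = 0.0283).

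Non-clustered protocadherins, single-gene adhesion proteins that are most studied in neurons, gave 5 of the 12 falls in TLX+siCTL. PCDH7 (ENSG00000169851, chromosome 4, 30720415 to 31146805) had log2 CPM of 4.77, 4.75 and 5.02 in the control libraries, 3.07, 3.10 and 2.76 in the TLX libraries and 5.00, 5.22 and 5.24 after siTLX. It fell 3.67-fold (-1.87 ± 0.11, adjusted p = 5.39e-06) and rose 4.52-fold (2.18 ± 0.11, adjusted p = 6.91e-06). Its difference between TLX+siTLX and control cells was 0.30 (95% interval 0.04 to 0.56, adjusted p = 0.0722). That passed the threshold without S3 (0.39, adjusted p = 0.0493) and when rows with a mean log2 CPM below 1 were left out (adjusted p = 0.0285), and the authors' deposited table calls it.

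PCDH20 (chromosome 13, 61409685 to 61415522) showed the same course. Its log2 CPM was 0.79, 0.88 and 0.87 in the control libraries, -0.79, -0.84 and -0.99 in the TLX libraries and 0.94, 0.82 and 0.47 after siTLX. It fell 3.29-fold (-1.72 ± 0.17, adjusted p = 8.11e-05), rose 3.06-fold (1.61 ± 0.17, adjusted p = 0.000218) and differed from control cells in TLX+siTLX by -0.10 (95% interval -0.49 to 0.29). An annotated gene on the same strand, AL592490.1, shares 95.8% of the PCDH20 exon bases and has a row of its own in the table, so PCDH20 reads could be split and its level is uncertain.

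PCDH9 and PCDH17, on the same chromosome, fell and were not called in the siRNA step. PCDH9 had log2 CPM of 2.47, 2.36 and 2.47 in the control libraries, 0.72, 0.84 and 0.52 in the TLX libraries and 0.84, 0.79 and 0.36 after siTLX. Its fall was 3.34-fold (-1.74 ± 0.15, adjusted p = 4.24e-05), and the siRNA step was -0.03 (95% interval -0.38 to 0.33). PCDH17, at -0.50, -0.42 and 0.34 in the control libraries, -2.00, -2.53 and -2.82 in the TLX libraries and -1.54, -1.92 and -2.50 after siTLX, fell 4.77-fold (-2.25 ± 0.38, adjusted p = 0.00167) and changed by 0.46 ± 0.38 after the siRNA (adjusted p = 0.48). The 3 protocadherins of chromosome 13 lie 3680373 and 4887311 bases apart, and PCDH20, which lies between PCDH17 and PCDH9, was the one that rose.

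PCDH10 was near the floor, with 7.78 to 15.4 estimated reads in the CTL+siCTL libraries and 1.64 to 3.28 in TLX+siCTL, and was called in TLX+siCTL (-1.67 ± 0.38, adjusted p = 0.00914). After the siRNA it was at 3.28 to 9.35 estimated reads (0.90 ± 0.38, adjusted p = 0.139). Against control cells its difference after the siRNA, -0.77 ± 0.38, was not called (adjusted p = 0.165). Of 15 alternative settings 14 gave the same, and it passed the threshold only without S8 (-1.10, adjusted p = 0.0474). PCDH1, an epithelial protocadherin, was at 2.48, 2.71 and 2.36 in the control libraries, 2.97, 2.80 and 2.91 in the TLX libraries and 3.08, 3.03 and 3.42 after siTLX. Only the difference of TLX+siTLX from CTL+siCTL was called (0.66 ± 0.13, adjusted p = 0.00297). The first step, 0.38 ± 0.13 (adjusted p = 0.052), passed without S2 or S9 (adjusted p = 0.0342 and 0.0277) under 3 other scalings (adjusted p = 0.0148 to 0.0433) and with rows below a mean of 1 left out (adjusted p = 0.0212). PCDH12, PCDH15, PCDH18 and PCDH19 were not called.

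The 4 FAT genes went different ways. FAT1 (ENSG00000083857, chromosome 4, 186587783 to 186726722, minus strand), a giant cadherin studied as a tumour suppressor, had log2 CPM of 10.11, 10.05 and 10.05 in the control libraries, 7.97, 8.04 and 7.90 in the TLX libraries and 8.23, 8.37 and 8.34 after siTLX. No 2 groups overlapped. FAT1 fell 4.29-fold (-2.10 ± 0.05, adjusted p = 1.71e-07), rose 1.27-fold after the siRNA (0.34 ± 0.05, adjusted p = 0.00135) and was still 3.38-fold below control cells (-1.76 ± 0.05, adjusted p = 8.65e-08). FAT3 (ENSG00000165323, chromosome 11, 92352096 to 92896470), which shapes neuronal processes in the retina, had log2 CPM of -0.22, -0.44 and -0.17 in the control libraries, 2.35, 2.63 and 2.80 in the TLX libraries and 3.29, 2.92 and 2.73 after siTLX. Its rise was 7.30-fold (2.87 ± 0.17, adjusted p = 5.35e-06). The siRNA step, 0.39 (95% interval -0.01 to 0.78, adjusted p = 0.159), missed the threshold, and in TLX+siTLX FAT3 was 9.55-fold above control cells (3.26 ± 0.17, adjusted p = 1.53e-06). FAT3 thus stayed high in cells whose NR2E1 had been lowered in part. NR2E1 itself was still 1.86 ± 0.47 above control cells in TLX+siTLX (limma adjusted p = 0.0134).

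FAT4 (chromosome 4, 125316399 to 125492932), the receptor for Dachsous, rose by 0.97 ± 0.06 in TLX+siCTL (adjusted p = 7.34e-06), from 4.92, 4.92 and 5.03 log2 CPM to 5.81, 5.98 and 5.98. In TLX+siTLX it was at 5.77, 5.91 and 5.77, a step of -0.11 ± 0.06 (adjusted p = 0.269) that was called as a fall only with library medians over all rows centred (-0.25, adjusted p = 0.0113). The gene of its ligand, DCHS1, was at -0.01, -0.10 and -0.48 in the control libraries, 0.28, 0.35 and 0.60 in the TLX libraries and 0.06, 0.15 and 0.05 after siTLX. The DCHS1 rise of 0.61 ± 0.18 (adjusted p = 0.0356) was not called without S2, S3, S5 or S6 (adjusted p = 0.0502 to 0.0929) or with only the 2 groups fitted (adjusted p = 0.0601). DCHS2 was not called.

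FAT2, an epidermal and cerebellar cadherin, was the 1 member that fell after the siRNA. Its level was -1.94, -2.35 and -2.00 in the control libraries, -1.36, -1.06 and -1.17 in the TLX libraries and -2.95, -2.24 and -1.88 after siTLX, from 8.48 to 35.8 estimated reads. The fall of -1.16 ± 0.32 (adjusted p = 0.031) was lost without S4, S5, S6, S7 or S8 (adjusted p = 0.0526 to 0.0865) and with only the 2 groups fitted (adjusted p = 0.0732). Its difference in TLX+siCTL, 0.90 ± 0.32, missed the threshold (adjusted p = 0.0717), and passed without S7 (adjusted p = 0.0235), without S9 (adjusted p = 0.0419) and under 5 other settings (adjusted p = 0.00806 to 0.0477).

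CELSR genes encode the vertebrate Flamingo receptors of planar cell polarity. CELSR1 (ENSG00000075275, chromosome 22, 46360834 to 46537170), the main epithelial one, had log2 CPM of 6.40, 6.46 and 6.62 in the control libraries, 4.97, 4.55 and 4.57 in the TLX libraries and 5.14, 5.50 and 5.17 after siTLX. No 2 groups overlapped. It fell 3.46-fold (-1.79 ± 0.13, adjusted p = 1.52e-05), rose by 0.57 ± 0.13 (adjusted p = 0.0138) and stayed 2.33-fold below control cells (-1.22 ± 0.13, adjusted p = 1e-04). The rise was lost without S5, S6 or S8 (adjusted p = 0.0759, 0.0738 and 0.061) and with only the 2 groups fitted (adjusted p = 0.0756). CELSR2 rose by 0.59 ± 0.07 (adjusted p = 0.000339), from 4.88, 4.74 and 4.98 to 5.43, 5.43 and 5.50, and was at 5.22, 5.29 and 5.45 in TLX+siTLX. CELSR3, a neuronal receptor, was at 4.08 to 4.45 in all 9 libraries and was not called. With library medians over all rows centred CELSR2 and CELSR3 were called lower after the siRNA (adjusted p = 0.0171 and 0.00747).

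Of 12 partners of the FAT, Dachsous and CELSR proteins, 11 of them at a mean log2 CPM of 1 or more, 3 rose and 4 fell in TLX+siCTL, 6 rose and 1 fell after the siRNA, and 5 rose and 3 fell between TLX+siTLX and CTL+siCTL, with medians of -0.17, 0.25 and 0.10. Among all rows at that level 56.6%, 45.8% and 63.6% were called, and the counts of the first and the last comparison are near that background. FJX1, the homologue of the fly kinase that tunes binding between Fat and Dachsous, rose by 0.30 ± 0.06 and by 0.31 ± 0.06. PRICKLE1, a core polarity protein, rose most after the siRNA, from 3.68, 3.16 and 3.41 log2 CPM to 4.64, 4.86 and 4.70 (1.32 ± 0.16, adjusted p = 0.000477). FZD3, a frizzled receptor that acts with CELSR proteins, fell by 0.77 ± 0.11 in that step (adjusted p = 0.00119).

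**Figure D3:**
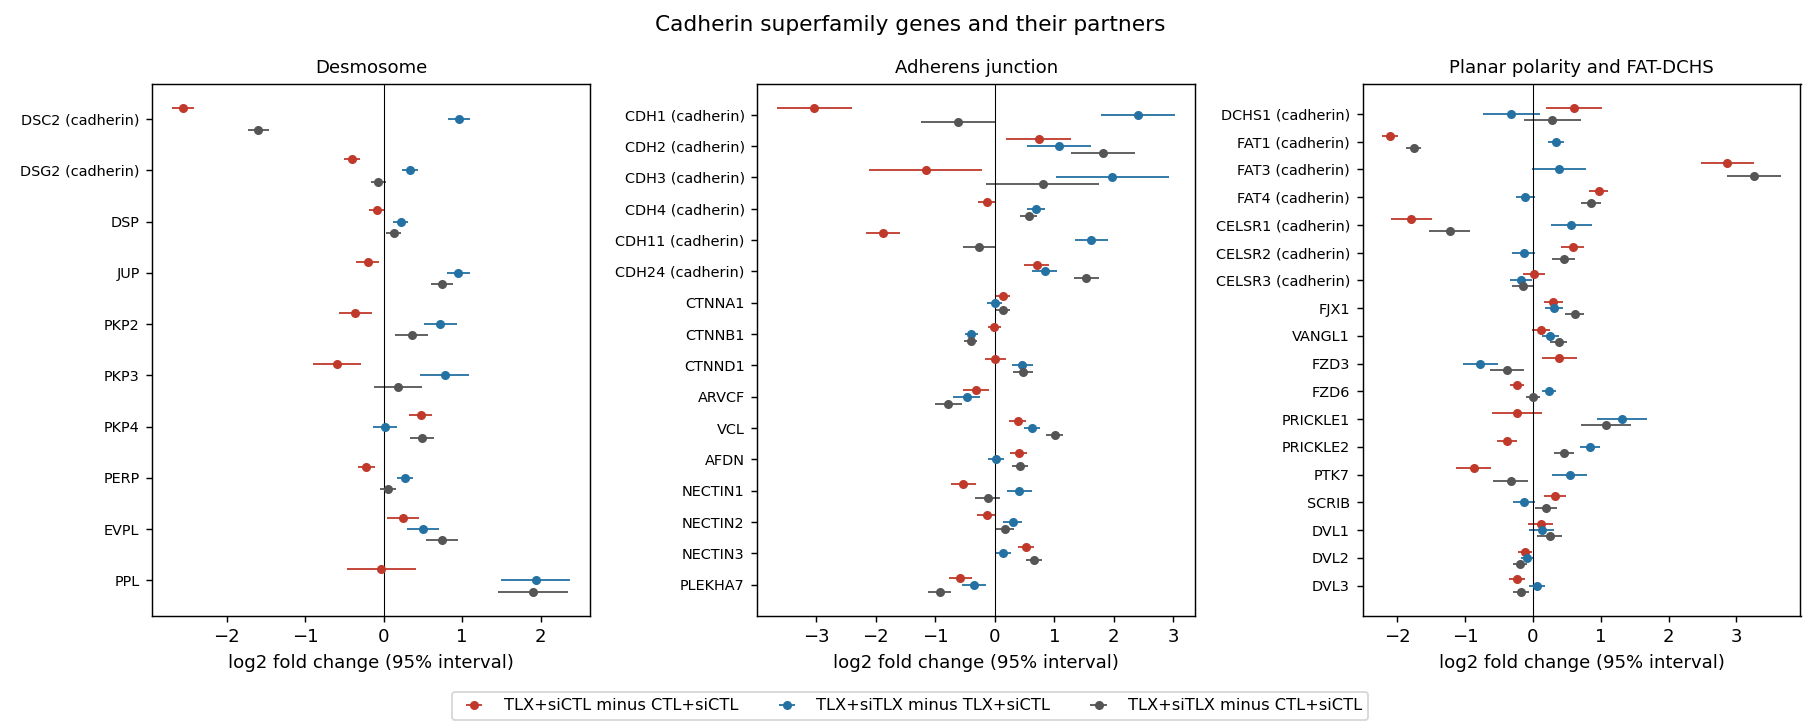
Log2 fold changes with 95% intervals (limma) of expressed cadherin superfamily genes and of their partners at a mean log2 CPM no lower than 0, for desmosomes, adherens junctions and planar polarity; red is TLX+siCTL minus CTL+siCTL, blue TLX+siTLX minus TLX+siCTL and grey TLX+siTLX minus CTL+siCTL. DSC2 at -2.56 lies further from 0 in the first difference than any desmosome plaque gene drawn, and CDH1 and CDH11 further than any catenin.

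Among the remaining cadherins CDH17, the liver-intestine cadherin, rose after the siRNA from a low level. CDH17 log2 CPM was -2.27, -2.89 and -4.12 in the control libraries, -2.44, -3.38 and -3.94 in the TLX libraries and -0.75, -0.46 and -1.11 after siTLX, or 38.0 to 53.8 estimated reads in the last group and 2.42 to 14.8 in the other 6 libraries. The 3 TLX+siTLX libraries lay above all others. The rise was 2.48 ± 0.54 (adjusted p = 0.0103), and 2.31 ± 0.54 against control cells (adjusted p = 0.00934). Without S6 or S8 the first of these missed the threshold (2.13 and 2.32, adjusted p = 0.0502 and 0.0505). CDH13, the membrane-anchored T-cadherin, CDH16, CDH23 and CDH26 were not called. CDH23 differed by -1.30 ± 0.46 in TLX+siCTL (adjusted p = 0.0653), and 18.9% of its exon bases overlap C10orf105 on the opposite strand.

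Of 10 cadherin-repeat genes outside the rule (CDHR1 to CDHR5, CLSTN1 to CLSTN3, RET and PCDH11X), 2 were at a mean log2 CPM of 1 or more. In TLX+siCTL 2 of the 10 fell and 0 rose, where 30.1% of all rows were called. Calsyntenin 3 (CLSTN3), a synaptic organiser, fell from 3.68, 3.65 and 3.75 log2 CPM to 2.66, 2.34 and 2.55 (-1.18 ± 0.09, adjusted p = 1.37e-05) and was at 2.67, 2.63 and 2.73 in TLX+siTLX. CDHR4, at a mean log2 CPM of -3.92, fell by 1.09 ± 0.36 (adjusted p = 0.0484). After the siRNA 1 of the 10 genes rose and 0 fell, where 23.7% of all rows were called. Between TLX+siTLX and CTL+siCTL 0 rose and 1 fell, where 34.6% of all rows were called.

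Clustered protocadherins, whose isoforms are chosen stochastically in neurons, were in the table with 52 genes, 10 of them at a mean log2 CPM of 1 or more. In TLX+siCTL 6 rose and 5 fell, after the siRNA 3 rose and 1 fell, and between TLX+siTLX and CTL+siCTL 8 rose and 5 fell, with medians of -0.01, 0.01 and 0.04, where 30.1%, 23.7% and 34.6% of all rows were called. In the first comparison PCDHGA10 rose by 1.46 and PCDHB6 by 2.03, and PCDHGA11 fell by 2.22 (adjusted p = 0.00706, 0.00256 and 0.00144). PCDHB5 rose by 1.61 there, and PCDHA9 and PCDHGA3 fell by 1.64 and 1.29, all 3 of them at a mean log2 CPM below -3. After the siRNA PCDHA7 and PCDHA9 rose by 1.46 and 1.37 and PCDHA1 fell by 1.49, each at a mean log2 CPM below -3. Between TLX+siTLX and CTL+siCTL differences beyond 1 were also called for PCDHGC3 (1.32, adjusted p = 0.0169), PCDHB15 (1.22) and PCDHGA2 (-1.14). Isoforms of the A and G clusters share their last exons and B isoforms resemble each other, so reads can be divided between them and single isoform values are uncertain.

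**Figure D4:**
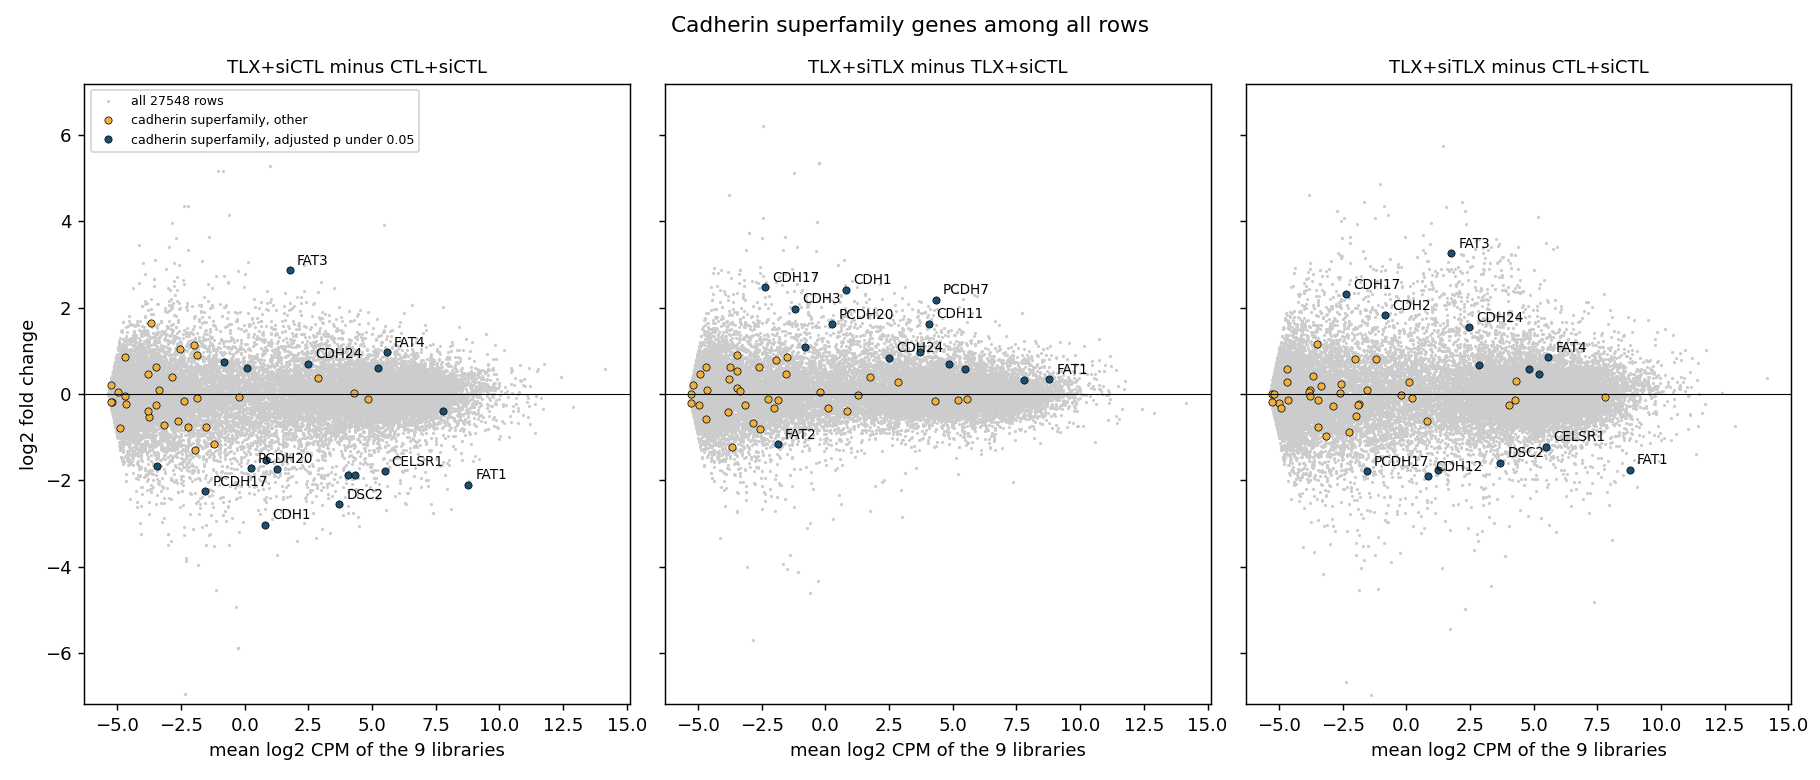
Log2 fold change against the mean log2 CPM of the 9 libraries for all 27548 rows (grey) and the 49 cadherin superfamily genes (blue where limma's adjusted p was under 0.05, orange otherwise), for the 3 differences between groups. Members below -3 on the horizontal axis are called once in the 3 panels, PCDH10 in the first, and FAT1 stands among the rows of highest log2 CPM, with a log2 fold change of -2.10.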

How the data were processed

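Processed values of 9 libraries of poly(A) RNA from MDA-MB-231 cells were used. The authors deposited 1 table of log2 CPM per gene, with 3 columns for each of the 3 groups, and tables of their own comparisons with signed fold changes (scores with no value between -1 and 1), p-values and false discovery rates. Per the submitters' processing notes the tools named are kallisto 0.44.0, limma and edgeR with GRCh38, with no role given, and the prior count, the annotation and the use of strand are not stated in these sources. Columns name the group and a running number from S1 to S9. Each group's 3 columns were used as replicates without a pairing.

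All 27548 rows and 9 libraries were fitted together with limma 3.58.1 (R 4.3.3), with an intensity trend and 1 mean per group, and the 3 differences between groups were tested two-sided with Benjamini-Hochberg adjustment over all rows at 0.05. Fold changes are on the log2 CPM scale with the authors' prior count, which understates changes of low genes. Estimated reads were rebuilt from the deposited log2 CPM and are approximate. The lowest value was -5.33 in all libraries. The script was tested on simulated data. The alternatives were a minimum mean log2 CPM of 1, log2(CPM + 1), centred library medians, quantile normalization, no intensity trend, only the 2 groups compared and leaving out each library. Centring on rows with a mean of at least 1, and the use of the second row of CDH4 or of the sum of its rows, were added after seeing the data. The second row of DCHS2 held the same values as the first and gave no alternative.

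The members, the partner lists and the markers were chosen with earlier results of these data known. By rule every member at a mean log2 CPM of 0 or more was named, lower members only where a comparison called them, CDH1, CDH2, CDH3, CDH5 and CDH11 at any level, and partner genes where they were called with a log2 fold change beyond 1. CDH15, CDH23, other uncalled low members, JUP, PKP3, PERP, VIM, CD44, EGFR, GATA3, PGR, KRT18, CTNNB1, CTNND1, FJX1, FZD3, KRT8 and EPCAM were named after their values were seen. Of the prostate markers 1 is not reported here. Positions and overlaps come from GENCODE 29 (GRCh38), and promoter sequences from RefSeq.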

Additional observations from a re-analysis of the deposited data

How the results depend on the processing

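Over the members' 6 counts of calls, 86 of 96 values under an alternative stayed within 1.5 times the reported count. With only rows at a mean log2 CPM of at least 1 tested, which leaves 14 members, 7 members were lower in TLX+siCTL than in CTL+siCTL instead of 12, and 8 higher and 0 lower in TLX+siTLX than in TLX+siCTL instead of 13 and 1. The 1 member lower after the siRNA, FAT2, was 0 with only the 2 groups compared and 4 with library medians over all rows centred. With 1 library left out at a time this count was 0 to 1, the others 4 to 9 higher and 12 to 13 lower in TLX+siCTL against CTL+siCTL, 11 to 13 higher in TLX+siTLX against TLX+siCTL, and 8 to 10 higher and 6 to 7 lower in TLX+siTLX against CTL+siCTL. The lone 2 libraries left in a group share the spread pooled over all groups.

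Of 75 differences of named genes 55 kept direction and side of the threshold in each alternative run. Directions turned in 6 uncalled differences when 1 library was left out: CELSR3 (-0.03 to 0.08) and CDH17 (-0.68 to 0.25) in TLX+siCTL against CTL+siCTL, PCDH9 after the siRNA (-0.12 to 0.12), and FAT2 (-0.51 to 0.03), CDH5 (-0.08 to 0.55) and PCDH20 (-0.20 to 0.03) between TLX+siTLX and CTL+siCTL. CELSR3 was -0.03 without S2 and 0.00 without S6, CDH17 0.25 without S1 and 0.18 without S6, and PCDH9 0.05 without S5 and 0.12 without S9. The cause was not tested. CDH5 passed in TLX+siCTL without S9 (limma adjusted p = 0.0405), on a few reads. Centring library medians over all rows moved every difference by 0.12, -0.14 and -0.03 in the 3 comparisons and the share of rises among all calls from 49.9% to 64.9%, from 53.8% to 29.9% and from 51.0% to 47.9%. No paired analysis was possible because the columns of the table carry a group but no replicate number. Depth limits the 17 members below a mean of -3, where missing a call says little.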

Other observations

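PCDH19, a protocadherin of the X chromosome known from a form of epilepsy, stood out in 1 library. It had 60.0 estimated reads in S4 of TLX+siCTL (log2 CPM -0.56), and 0 to 6.67 in the other 8 libraries, 2.31 and 5.72 of them in S5 and S6 of the same group. Its difference between TLX+siCTL and CTL+siCTL was 1.63 ± 0.88 (SE, limma adjusted p = 0.225) and was not called. The gene was singled out after its values were seen.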
